A study of Mus musculus with 8 samples.

Results

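Zinc finger genes with numbers from Zfp600 to Zfp999 were taken from a bulk RNA-seq table of mouse leukemic stem cells (LSCs). The members were the genes whose symbol is Zfp followed by 3 digits, the first of them 6 to 9, and that rule uses the symbol and no measured value. The table held 156 such genes among 15576. All 156 were found in the RefSeq gene table for GRCm38.p6. Most of their names are serial numbers, so the set is united by naming and not by a shared pathway.

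The LSCs came from the bone marrow of C57BL/6 mice with chronic myeloid leukemia (CML), a disease driven by the BCR-ABL kinase. Per the study's methods these were BCR-ABL×SCL-tTA double transgenic mice, in which regulatory sequence of the stem cell gene SCL drives the tTA activator and tTA turns on BCR-ABL once tetracycline is withdrawn, so both groups carried both transgenes. The CML group of 4 libraries was untreated. The CML-TKI group of 4 libraries had received imatinib, a tyrosine kinase inhibitor (TKI) of BCR-ABL, by gavage on alternate days at 400 mg/kg for 4 weeks per the labels, while the study also names a lower dose for these mice. The sources used here do not give the age of the mice, whether animals were pooled for a library, or whether each library was a separate animal, so p-values measure only the spread between these libraries. The comparison asks how cells sorted as LSCs after treatment differ from those sorted without it.

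C2H2 zinc finger proteins fold short loops around zinc ions, each gripped by a pair of cysteines and a pair of histidines. A row of fingers reads a stretch of DNA, and consecutive fingers are often joined by a conserved linker. Many also carry a Krüppel-associated box (KRAB), which recruits the co-repressor Trim28 and, through it, the histone methyltransferase Setdb1 and DNA methylation machinery. KRAB zinc finger proteins are known for silencing retroviral elements in the genome. Their genes lie in clusters of near copies.

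A KRAB A box was found in the coding model of 105 members and was not found in 48, and 3 members (Zfp660, Zfp783 and Zfp939) had no coding model to search. By the finger pattern searched, 6 members had no finger in their model, namely Zfp703, Zfp839 and Zfp957 without the box and Zfp781, Zfp935 and Zfp972 with it. The members with a KRAB A box had a median of 11 fingers and a median transcript GC content of 40.23%. The members without one had a median of 7 fingers and a GC content of 51.8%. The 2 sequences here are examples from the classes, picked for description. Each is the first finger of its gene that is followed by a linker. They are coding DNA read 5′ to 3′ from GRCm38, with the bases of the linker in capitals. Zfp865 (NCBI gene 319748) has no KRAB A box and is the member that passed the test below, and Zfp971 (NCBI gene 626848) has a KRAB A box. The Zfp865 stretch lies at chr7:5029675-5029758 on the plus strand, and the Zfp971 stretch at chr2:178033000-178033083 on the plus strand.
Zfp865: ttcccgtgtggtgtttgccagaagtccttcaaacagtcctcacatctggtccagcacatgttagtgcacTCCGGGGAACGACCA
Zfp971: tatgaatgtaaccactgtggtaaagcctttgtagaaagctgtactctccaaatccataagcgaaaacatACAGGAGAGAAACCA
Each stretch is 84 bases long. Its GC content was 53.57% in Zfp865 and 39.29% in Zfp971, and that of the whole coding sequence was 65.09% and 40.43%. The Zfp865 model holds 20 fingers in 1058 residues and the Zfp971 model 12 fingers in 470 residues. In GC content this pair goes the way of the class medians, and in number of fingers it goes the other way.

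The clusters hold copies that short reads cannot separate. Zfp966 and Zfp967, both KRAB genes on chromosome 2, had identical values in all 8 libraries, and the 1455 bases of their coding sequences did not differ at any base. The 250 bases before their start sites are shown, from RefSeq (GRCm38.p6). These bases were the same in both genes and nearly the same in Zfp971, which lies elsewhere on that chromosome. They lie at chr2:175931101-175931350 on the minus strand for Zfp966, at chr2:176520754-176521003 on the plus strand for Zfp967 and at chr2:178023034-178023283 on the plus strand for Zfp971. Capitals mark the bases at which the Zfp971 copy differs from the other copies after it is shifted by 14 bases.
Zfp966 and Zfp967: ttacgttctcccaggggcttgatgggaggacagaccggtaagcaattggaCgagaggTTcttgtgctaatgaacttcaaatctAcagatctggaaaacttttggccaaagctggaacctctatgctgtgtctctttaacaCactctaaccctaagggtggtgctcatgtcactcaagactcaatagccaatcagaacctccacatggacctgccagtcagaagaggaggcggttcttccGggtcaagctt
Zfp971: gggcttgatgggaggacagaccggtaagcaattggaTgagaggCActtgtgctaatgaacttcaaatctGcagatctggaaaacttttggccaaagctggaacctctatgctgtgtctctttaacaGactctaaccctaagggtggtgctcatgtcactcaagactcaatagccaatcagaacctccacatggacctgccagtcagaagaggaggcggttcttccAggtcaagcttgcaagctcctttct
Over the 236 bases compared, 6 differed. Read sharing was wider than this pair. A value that was not whole, as arises when a read is divided between genes or transcripts, occurred in at least 1 library for 85 of the 156 members, among them 66 of the 105 KRAB members and 18 of the 48 members without the box. Levels of single KRAB members with close copies are therefore uncertain. The count of values that were not whole was not made over all genes, so it does not set the members apart. Promoters were found in RefSeq for 134 members. The letters GGGCGG, searched on both strands of the 250 bases before the start, were present in 34.7% of 95 KRAB members, 66.7% of 36 members without the box and 35.4% of 27025 genes. In the same order, the shares were 16.8%, 11.1% and 7.83% for CCGGAAG and 5.26%, 5.56% and 14.3% for TATAAA. The median GC content of these bases, taking the highest value per gene, was 52.0%, 66.2% and 52.8%.

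Before the comparison, the libraries themselves differed. Total counts ranged from 4939644 to 8620101 in CML and from 1041552 to 5104268 in CML-TKI. A count of 3, taken as the floor, corresponded to 0.409 to 0.58 CPM in CML and to 0.57 to 3.29 CPM in CML-TKI, for counting error only. CPM here is the count divided by the library size, scaled by TMM. The fourth CML column carries the number 5, which no label gives, and is called CML 5. The labels give the same CD150-negative, CD48-positive sort for all 8 libraries, while the study's figure legends define LSCs as CD48-negative and CD150-positive. RNA of Slamf1 (CD150) lay at 29.01 to 37.72 CPM in CML and 0.6198 to 6.576 CPM in CML-TKI, and RNA of Cd48 at 3.865 to 6.401 CPM and 39.89 to 178.2 CPM. The RNA of the CML libraries thus went against the labelled gate, and that of the CML-TKI libraries against the study's definition. Of the other gate genes, Kit lay at 764 to 1023 CPM in CML and 194.3 to 290.4 CPM in CML-TKI. Kit was called lower (adjusted p = 0.00087, edgeR), while Ly6a and Flt3 overlapped between the groups. The groups are named here as the labels name them. Among marker lists, the summed level of 11 granulocyte genes lay at 162.3 to 265.6 CPM in CML and 1459 to 8434 CPM in CML-TKI, with 10 called higher. The summed level of 7 monocyte genes lay at 13.61 to 27.83 CPM and 516.4 to 2515 CPM, with all 7 called higher. The summed level of 10 stem cell genes lay at 1452 to 1673 CPM and 68.18 to 432.3 CPM, with 4 of the 9 tested called lower. In these 3 lists CML-TKI 1 was the treated library nearest to CML, at 1459, 516.4 and 432.3 CPM. The summed level of 5 megakaryocyte genes lay at 1207 to 1420 CPM and 52.06 to 511.5 CPM, with 2 called lower. The 6 erythroid genes summed to 139.3 to 235.4 CPM and 61.67 to 23890 CPM, with 0 called. The highest sum was in CML-TKI 3, where the globin genes Hba-a1 and Hbb-bt stood at 19620 and 4214 CPM. The other listed genes, Klf1, Gata1, Car1 and Epor, stood there at 5.48, 40.55, 4.384 and 1.096 CPM, below every CML library. Hoxb5, a stem cell gene, was at 0 in CML-TKI 2 to 4. It lay at only 1.351 to 3.813 CPM in CML, near the floor of 3.29 CPM in CML-TKI 3, and was not tested. In bulk samples, fewer cells of a type and less RNA per cell cannot be told apart. The part of these markers in the results that follow was not tested.

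The members were moderately to weakly expressed. After the filter on low counts 142 of the 156 members were tested. The 14 members that were not tested held between 8 and 80 counts over all libraries, and 10 of them carry a KRAB A box. They were Zfp658, Zfp711, Zfp750, Zfp811, Zfp853, Zfp879, Zfp936, Zfp957, Zfp960, Zfp972, Zfp977, Zfp981, Zfp990 and Zfp995. The mean level of a tested member over the 8 libraries had a median of 17.7 CPM and reached 332.3 CPM. Only 8 tested members exceeded 100 CPM, and 46 were under 10 CPM. Per kilobase of the transcript model, the median level was 4.517 CPM for the KRAB members and 8.298 CPM for the members without the box.

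Summed over all 156 members, the level was 4888.6, 5086.3 and 5008.7 CPM in CML 1, 2 and 3, and 3009 CPM in CML 5. It was 4305.2, 3797.5, 3794.3 and 3980.1 CPM in CML-TKI 1 to 4. The 4 treated libraries lay below CML 1 to 3 and above CML 5, so the groups overlapped through that library alone. The group means were 4498.2 ± 996.1 CPM in CML and 3969.3 ± 240.2 CPM in CML-TKI (SD, n = 4), and the difference was smaller than the SD of the CML group.

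**Figure D1:**
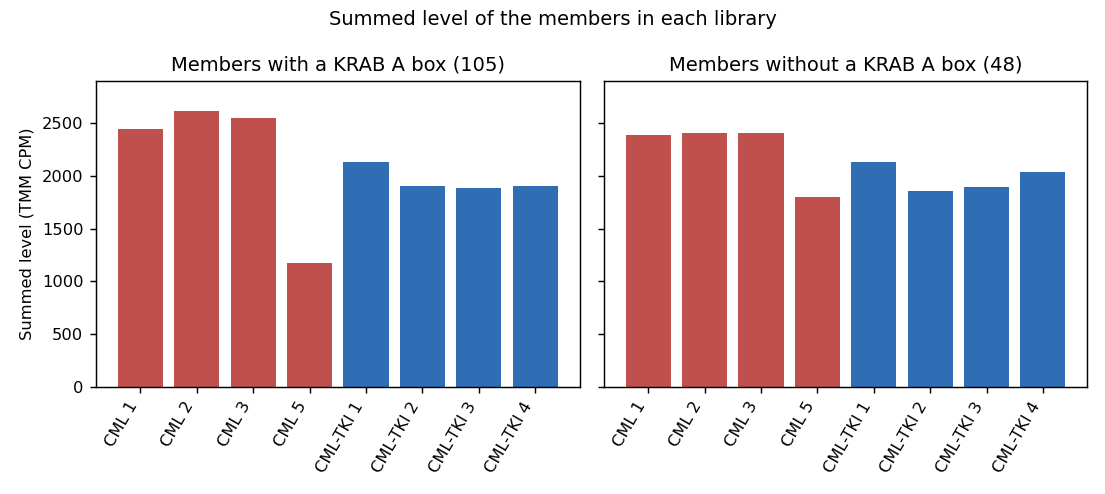
Summed level (TMM CPM, y axis) of the members with and without a KRAB A box in each of the 8 libraries (bars, CML red, CML-TKI blue). The CML 5 bar is the lowest in both panels, at 1172.4 CPM with the box and 1800.3 CPM without it, while the CML-TKI bars lie between 1888.4 and 2130.9 CPM and between 1855.1 and 2135.2 CPM.

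The low total of CML 5 was mostly that of its KRAB genes. With the box, the summed level was 2443.8, 2611.3 and 2550.3 CPM in CML 1 to 3 and 1172.4 CPM in CML 5. Without the box it was 2384.2, 2403.8 and 2408.4 CPM and 1800.3 CPM. CML 5 was the lowest CML library in 82 of the 95 KRAB members tested and in 22 of the 44 members without the box. The median difference of CML 5 from the mean of CML 1 to 3 was -1.33 on the log2 scale for KRAB members and -0.15 for the others, against 0.02 over all genes tested. For the members, this difference followed the GC content of the transcript, with r = 0.791 across 141 genes. Within the classes r was 0.688 for the KRAB members and 0.811 for those without the box. The trend was thus not particular to the KRAB members, and the parts of class and GC content were not tested. Over all genes the correlation was 0.575 across 11830 genes, and the genes share the libraries, so r is a description. For the members in the other 7 libraries, the same correlation lay between -0.143 and 0.22. Rn45s, a ribosomal RNA gene, took 38.3% of the counts in CML 5 and 9.23% to 23.1% in the others. Its part was not tested.

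**Figure D2:**
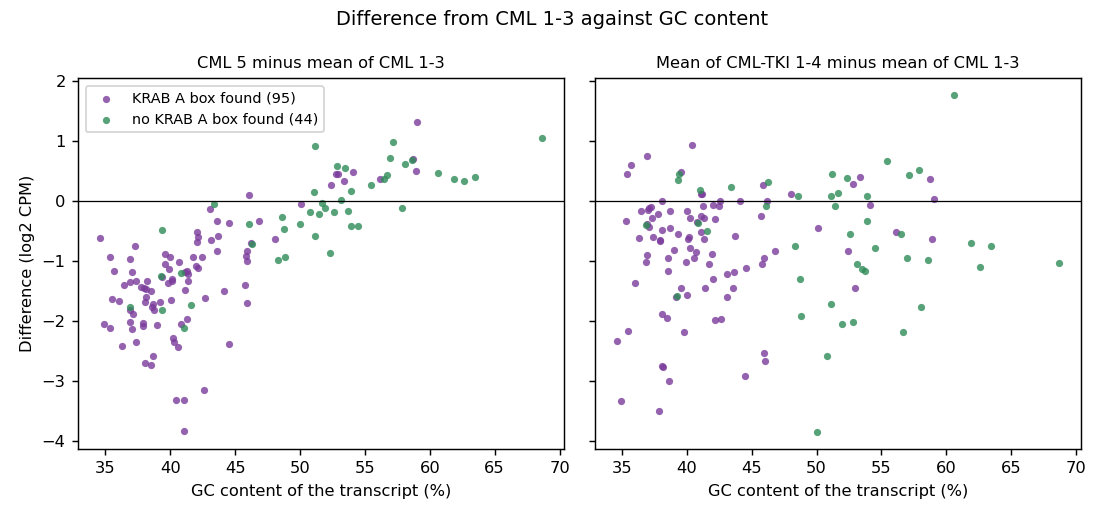
Difference in log2 CPM from the mean of CML 1 to 3 (y axis) against the GC content of the transcript in percent (x axis), for CML 5 (left) and for the mean of the 4 CML-TKI libraries (right), 1 point a member (purple with, green without a KRAB A box). In the left panel the points climb with GC content (r = 0.791), and the right panel shows no such climb.

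Relative to CML 1 to 3, the treated libraries were low for both classes. The median difference was -0.27, -0.70, -0.70 and -0.62 in CML-TKI 1 to 4 over all members, against medians over all genes of 0.00, -0.12, -0.18 and -0.05. Among the KRAB members 25 of 95 were lower in all 4 CML-TKI libraries than in each of CML 1 to 3, and 1 was higher. Among the others 16 of 44 were lower and 2 were higher. Over all genes tested, 17.4% were lower and 13.5% higher in the same comparison, which leaves out CML 5 and was made after its values were seen. The spread between libraries was wide. The biological coefficient of variation of the members was 11.94% among CML 1 to 3, 43.65% once CML 5 was added, and 73.42% among the CML-TKI libraries. Over all genes tested it was 11.02%, 28.04% and 69.18%.

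Of the 142 members tested, 1 was called, Zfp865, which was lower in the CML-TKI libraries by edgeR's quasi-likelihood test with an adjusted p under 0.05. That is 0.704% of the members, against 10.2% of all 11937 genes tested, 6.29% higher and 3.93% lower. Without adjustment, 15 members had p under 0.05, where the share over all genes was 25.7%. By direction alone, 53 members were higher and 89 lower, with a median log2 fold change of -0.23, against -0.0003 over all genes. Without CML 5, 40 were higher and 104 lower, with a median of -0.43. The median standard error of a member was 0.51 on the log2 scale, and 31 members had fitted changes over 1 in size. The KRAB members had a median of -0.19 with 0 of 95 called by edgeR, 5 of them at an unadjusted p under 0.05, while DESeq2 called 3 and limma-voom 4. The members without the box had a median of -0.40 with 1 of 44 called by edgeR, 7 by DESeq2 and 9 by limma-voom. Over all genes DESeq2 called 18.1% and limma-voom 21.5%. Without CML 5 the medians were -0.43 with the box and -0.39 without it, so the medians of the classes no longer stood apart.

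**Figure D3:**
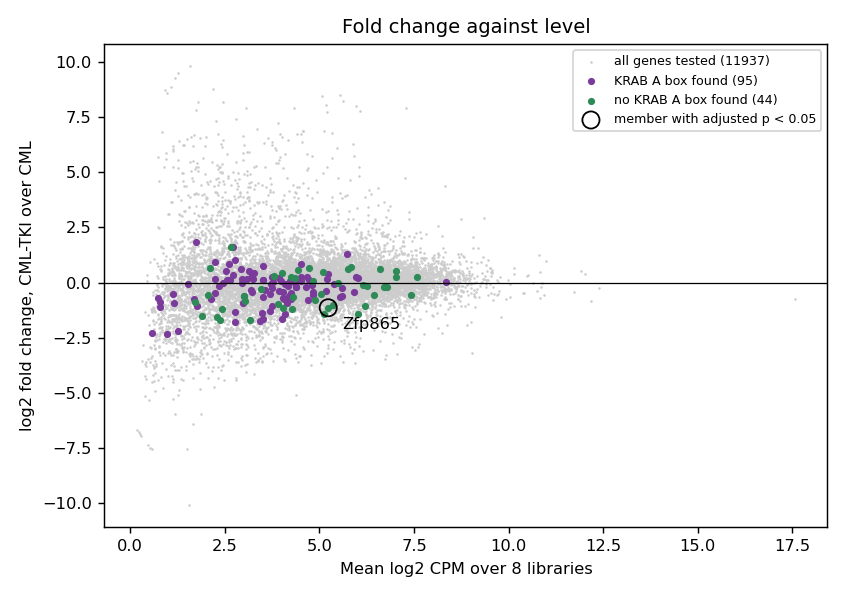
Log2 fold change of CML-TKI over CML (y axis) against mean log2 CPM over the 8 libraries (x axis) for all 11937 genes tested (grey) and for the members (purple with, green without a KRAB A box). The circled Zfp865, at -1.15, is the member with an adjusted p under 0.05, and the members lie between -2.35 and 1.85.

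The call count moved with single libraries. It was 17 without CML-TKI 1, where 20.6% of all genes were called, and 22 without both CML 5 and CML-TKI 1, where 20% were called, an alternative chosen after seeing the data. It was 0 by edgeR without CML 1, CML 2, CML 3 or CML-TKI 2, where 6.94% to 10.5% of members and 19.7% to 23.9% of all genes had an unadjusted p under 0.05, and where edgeR called 4.13% to 7.38% of all genes. It was 1 without CML-TKI 4, where 8.36% of all genes were called, 3 without CML-TKI 3, where 9.79% were, and 3 without CML 5, where 6.6% were. Those 3 without CML 5 were Zfp619, Zfp704 and Zfp882, all lower. In each of these fits the share of members called was below that of all genes.

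Zfp865 (chr7:5020376-5033226) stood at 50.39, 46.71, 49.28 and 79.88 CPM in CML 1, 2, 3 and 5. It stood at 28.87, 25.41, 18.63 and 28.36 CPM in CML-TKI 1 to 4. Every treated library was below every untreated one, and CML 5 was well above the other CML libraries. The log2 fold change was -1.15 ± 0.28 (SE), with an adjusted p of 0.0282 (edgeR). Without CML 5 it was -0.94 with an adjusted p of 0.0584 (edgeR), so the call ended without that library, as it also did without CML 1, CML 2, CML 3 or CML-TKI 2. It held when the trend on GC content was removed in each library, at -0.83 with an adjusted p of 0.0407 (edgeR).

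The groups did not overlap for 14 members, 12 lower and 2 higher in CML-TKI, where 13.1% of all genes were lower and 10.3% higher without overlap, 23.4% in all. Of these 14, only Zfp865 passed the adjusted test of edgeR. DESeq2 also called Zfp629, Zfp703, Zfp746 and Zfp768 among the named ones, with adjusted p of 0.0266, 0.0304, 0.0356 and 0.0125, and limma-voom called Zfp629 and Zfp703, with 0.0152 and 0.0324. Zfp629, without a KRAB A box, lay at 62.24, 58.29, 64.93 and 54.72 CPM in CML 1, 2, 3 and 5 and at 50.52, 24.79, 17.54 and 24.45 CPM in CML-TKI 1 to 4. The treated library CML-TKI 1 lay close to the untreated ones and the other three were far below them. Its log2 fold change was -1.01 ± 0.33 (adjusted p = 0.0804, edgeR), and without CML-TKI 1 it was -1.41 (adjusted p = 0.00464, edgeR).

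Zfp768 lay at 31.87, 27.02, 18.55 and 40.56 CPM in CML and at 16.9, 11.47, 10.96 and 11.71 CPM in CML-TKI. CML 3 came close to CML-TKI 1, and the other libraries were well apart. Its log2 fold change was -1.20 ± 0.34 (adjusted p = 0.0536, edgeR). Zfp746, known as PARIS, a KRAB repressor that the ubiquitin ligase Parkin targets, lay at 57.06, 55.4, 56.23 and 72.59 CPM in CML and at 44.44, 34.71, 41.65 and 35.64 CPM in CML-TKI. Its adjusted p was 0.101 (edgeR) at a log2 fold change of -0.63 ± 0.22. The groups of Zfp746 did not overlap, and its mean change was smaller than that of Zfp768. With the GC trend removed, the log2 fold change was -0.84 for Zfp629, -0.81 for Zfp768 and -0.36 for Zfp746, with adjusted p of 0.111, 0.106 and 0.259 (edgeR).

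Of the other members that stood lower without overlap, 3 had a mean log2 CPM of at least 3. Zfp672 lay at 34.78 to 44.2 CPM in CML and 24.11 to 30.77 CPM in CML-TKI. Zfp771 lay at 20.1 to 43.72 CPM in CML, with CML 5 the highest, and 3.288 to 15.5 CPM in CML-TKI. Zfp787 lay at 17.7 to 26.4 CPM and 3.288 to 14.62 CPM. None of these 3 passed, with adjusted p of 0.221, 0.151 and 0.181 (edgeR). Their log2 fold changes were -0.50, -1.16 and -0.99, and -0.34, -0.33 and -0.45 with the GC trend removed.

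Of the members that stood higher without overlap, Zfp971, the KRAB gene whose sequences are shown above, lay at 42.22, 55.78, 54.5 and 4.674 CPM in CML 1, 2, 3 and 5. It lay at 70.66, 107.5, 120.6 and 93.91 CPM in CML-TKI 1 to 4. CML 5 was far below the other CML libraries. The log2 fold change of 1.32 ± 0.58 had an adjusted p of 0.187 (edgeR), and without CML 5 it was 0.94 with an adjusted p of 0.0555 (edgeR). Zfp703, a co-repressor of the NET family known from luminal breast cancer, lay at 1.498, 5.983, 2.512 and 4.124 CPM in CML and at 7.597, 13.64, 12.06 and 10.67 CPM in CML-TKI. Its levels were low in both groups, and its log2 fold change of 1.63 ± 0.57 had an adjusted p of 0.101 (edgeR). With the GC trend removed it was 2.12 with an adjusted p of 0.0451 (edgeR).

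**Figure D4:**
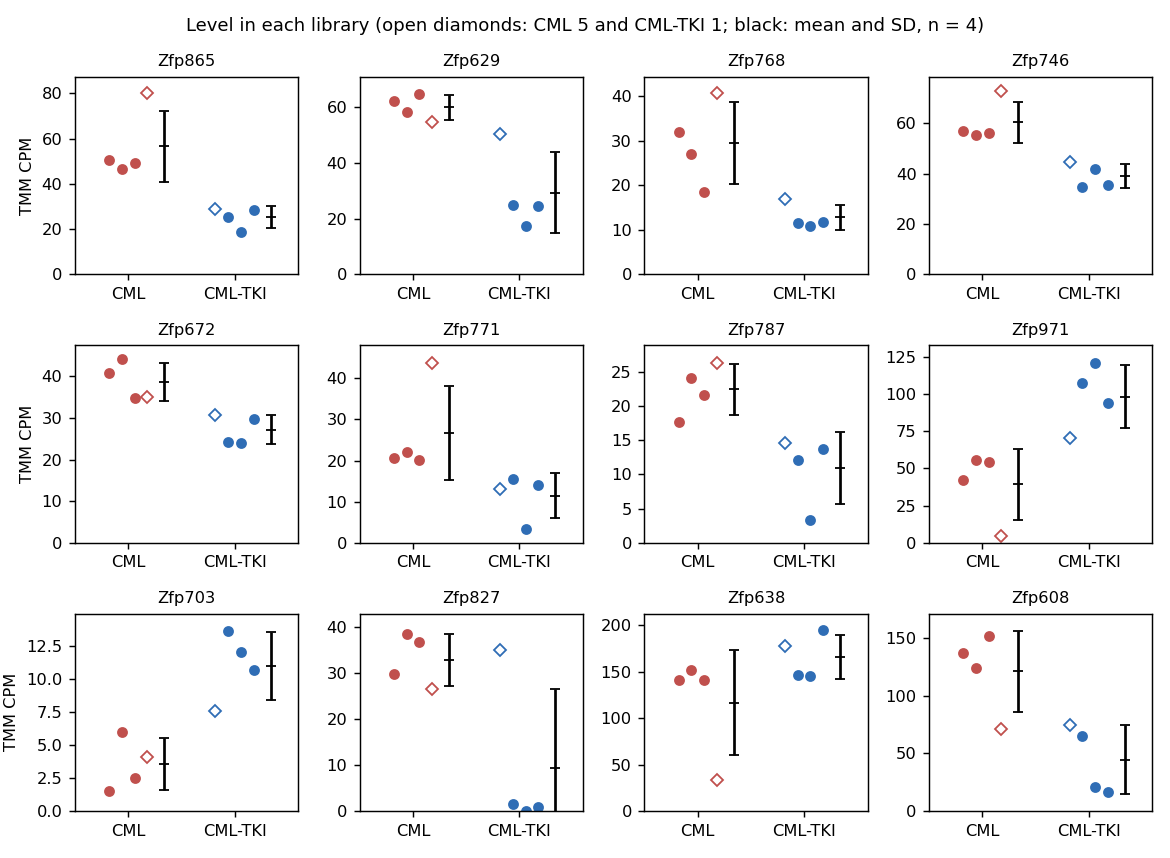
TMM CPM in each library (y axis) of 12 members in the CML (red) and CML-TKI (blue) groups, with open diamonds for CML 5 and CML-TKI 1 and the mean and SD (n = 4) in black. Zfp865 does not overlap between the groups, Zfp827 is at 34.95 CPM in CML-TKI 1 and at most 1.55 CPM in the other treated libraries, and Zfp638 is at 33 CPM in CML 5 alone.

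CML-TKI 1 held counts of members that were at or near 0 in the other treated libraries. Zfp827, a finger protein known to bring the NuRD complex to telomeres, lay at 29.69, 38.41, 36.72 and 26.53 CPM in CML 1, 2, 3 and 5. It lay at 34.95, 1.55, 0 and 0.7805 CPM in CML-TKI 1 to 4. CML-TKI 1 sat within the CML range and the other three were near 0. The log2 fold change was -1.71 ± 1.06 with an adjusted p of 0.351 (edgeR), and without CML-TKI 1 it was -5.05 with an adjusted p of 0.000397 (edgeR). With all 8 libraries limma-voom, which weights libraries by quality, called Zfp827 (adjusted p = 0.0094). In all, 17 members (10.9%) had 3 counts or fewer in each of CML-TKI 2, 3 and 4, as had 16.4% of the whole table. Of these, 12 members had over 3 counts in each of CML 1 to 3, and 11 of the 12 also had over 3 counts in CML-TKI 1 (91.7%). Of all genes, 783 met the same limits, and 76.2% of them had over 3 counts in CML-TKI 1. Zfp941, a KRAB gene chosen after its values were seen, had 63 counts in CML-TKI 1 and 0 in each of the others, against 20 to 37 counts in the CML libraries. CML-TKI 3 had the fewest counts of any library, and the part of depth was not tested.

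None of the 8 most abundant members passed the edgeR test over all 8 libraries, while limma-voom called Zfp704 and Zfp710, with adjusted p of 0.035 and 0.0183. Zfp871, a KRAB gene with 15 fingers, was the highest per library, at 365.9, 383.9, 371.8 and 195.4 CPM in CML 1, 2, 3 and 5 and at 324.6, 380.9, 287.1 and 348.9 CPM in CML-TKI 1 to 4. Its libraries overlapped apart from CML 5. Zfp706, a very short protein of 76 residues studied in embryonic stem cells, lay at 172.3 to 187.7 CPM in CML and 160 to 280.8 CPM in CML-TKI. Zfp704 lay at 223.3, 257.9, 249.3 and 122.1 CPM in CML and at 156.9, 152.2, 115.1 and 153.7 CPM in CML-TKI. CML 5 alone made its groups overlap, and without CML 5 it was lower by a log2 fold change of -0.76 (adjusted p = 0.0386, edgeR), against -0.56 ± 0.26 (adjusted p = 0.215, edgeR) with it. Zfp710 lay at 72.19 to 90.32 CPM in CML and 77.68 to 144.1 CPM in CML-TKI, with a log2 fold change of 0.62 ± 0.23 (adjusted p = 0.123, edgeR). Its adjusted p was 0.017 (edgeR) without CML-TKI 1, at 0.79, and 0.0391 (edgeR) with the GC trend removed, at 0.88. Zfp740 lay at 115.6 to 131.7 CPM and 72.21 to 214.8 CPM, and Zfp646 at 96.65 to 134.9 CPM and 70.35 to 119.5 CPM.

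Members with roles in chromatin were read separately. Zfp638 silences retroviral DNA that has not integrated, together with the HUSH complex. It lay at 141.1, 151.7, 141.6 and 33 CPM in CML 1, 2, 3 and 5 and at 177.4, 146.3, 145.8 and 194.6 CPM in CML-TKI. CML 5 held far less than any other library, and the log2 fold change was 0.51 ± 0.41 with it and 0.19 without it. Zfp644, a partner of the H3K9 methyltransferases G9a and GLP, lay at 148.2, 140.9, 143.8 and 43.17 CPM in CML and at 89.08, 118.4, 74.53 and 132.9 CPM in CML-TKI. Its adjusted p was 0.795 (edgeR) with CML 5, and 0.240 (edgeR) without it, at a log2 fold change of -0.48. Zfp687, which binds the histone reader Zmynd8, lay at 96.51 to 132.1 CPM in CML and 45.87 to 109.3 CPM in CML-TKI, with an adjusted p of 0.239 (edgeR).

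Among the KRAB genes known to repress retroviruses, Zfp809 recognises the primer binding site of murine leukemia virus and Zfp932 binds endogenous retroviruses. Zfp809 lay at 30.23, 23.16, 21.64 and 9.074 CPM in CML and at 15.38, 22.62, 20.82 and 24.71 CPM in CML-TKI, a log2 fold change of -0.01 ± 0.40, and its sign turned in 4 of the fits that leave out a library. Zfp932 lay at 39.22, 51.92, 41.16 and 15.12 CPM in CML and at 31.72, 22.62, 8.768 and 21.07 CPM in CML-TKI, with a log2 fold change of -0.78 ± 0.45 (adjusted p = 0.316, edgeR). Both were lowest, among the CML libraries, in CML 5. Zfp961, also with a KRAB A box, lay at 19.38 to 30.51 CPM and 17.54 to 38.5 CPM.

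Zfp608 and Zfp609 are relatives. Zfp608 lay at 137.1, 124.1, 151.7 and 71.35 CPM in CML and at 75.02, 65.08, 20.82 and 16.39 CPM in CML-TKI, with a log2 fold change of -1.42 ± 0.49 (adjusted p = 0.0946, edgeR), and -1.80 without CML-TKI 1 (adjusted p = 0.0304, edgeR). DESeq2 and limma-voom called Zfp608 over all 8 libraries, with adjusted p of 0.0251 and 0.00372. Zfp609, a partner of the cohesin loader Nipbl, lay at 53.11, 52.69, 47.54 and 27.63 CPM in CML and at 83.38, 75, 40.55 and 76.48 CPM in CML-TKI, a log2 fold change of 0.62 ± 0.30 (adjusted p = 0.234, edgeR). The difference between these genes was not tested. Zfp622, a factor in the assembly of the large ribosomal subunit, lay at 10.04 to 27.63 CPM and 10.96 to 31.61 CPM. Zfp652, a repressor that binds Cbfa2t3, lay at 19.38 to 37.49 CPM and 34.76 to 46.03 CPM. Zfp830, a splicing-associated protein, lay at 11 to 14.98 CPM and 5.983 to 23.02 CPM. None of the 3 passed, with adjusted p of 0.746, 0.319 and 0.743 (edgeR).

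Neighbouring members were read as runs, defined as 3 or more members whose starts follow each other within 500 kb. There were 17 runs with 88 members, and 68 members lay outside them. Chromosome 7 held the most members, 35, followed by chromosome 17 with 22. In 4 runs every tested member was lower, and in 1 run every tested member was higher, with all 8 libraries. On chromosome 7 the run from Zfp628 to Zfp784, which has no KRAB A box in any of its 3 members and includes Zfp865, had a median log2 fold change of -1.15. On chromosome 6 the run from Zfp786 to Zfp746 had all 5 members lower, at -0.94 to -0.63. On chromosome 2 the run from Zfp970 to Zfp931, to which Zfp971 belongs, had its 3 tested members higher, with a median of 0.52. Without CML 5 the median was 0.19 and Zfp970 stood at -0.26, and without CML-TKI 1 Zfp970 stood at -0.18. Zfp931 reached -0.15 at its lowest when 1 library was left out, so the direction of this run depended on single libraries. The largest run, of 14 KRAB members on chromosome 17 from Zfp677 to Zfp945, had 3 higher and 10 lower. Members within a run may share reads. Apart from Zfp865, no member of a run was called in the main edgeR fit over all 8 libraries. With the GC trend removed edgeR also called Zfp882, at a log2 fold change of -1.32 (adjusted p = 0.0481). It belongs to the chromosome 8 run from Zfp709 to Zfp961. DESeq2 called Zfp629, Zfp746 and Zfp768 among the named ones in runs.

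**Figure D5:**
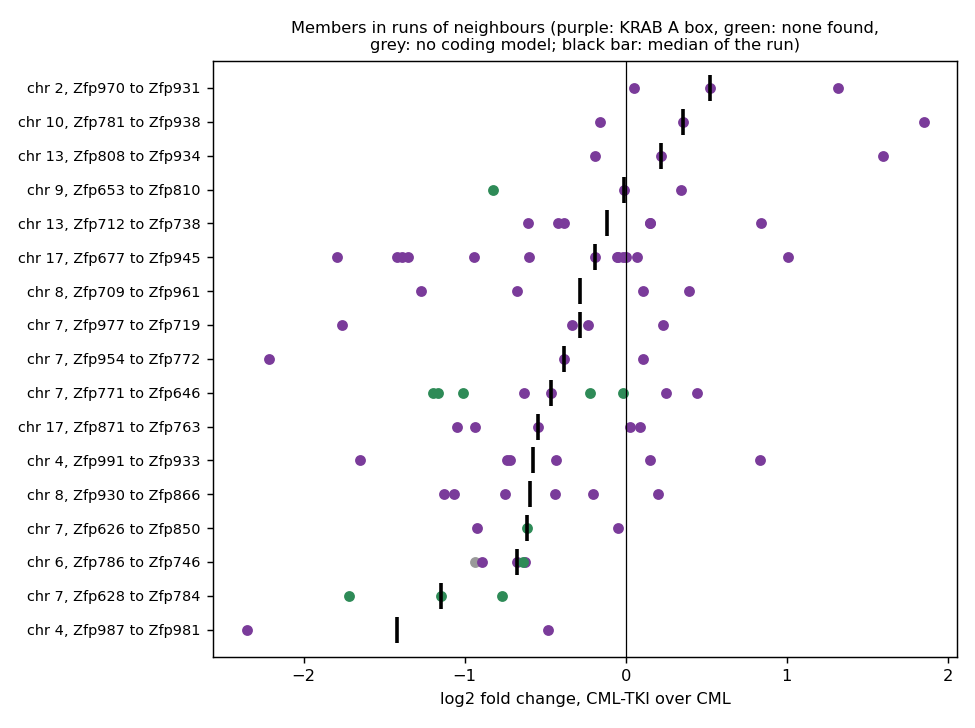
Log2 fold change of CML-TKI over CML (x axis) of each tested member in the 17 runs of neighbouring members (rows, ordered by their median, black bar), in purple with and green without a KRAB A box and grey without a coding model. The chromosome 2 run lies to the right of 0 with all 8 libraries, and the runs on chromosome 7 from Zfp628 to Zfp784 and on chromosome 6 lie to the left.

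The partners through which KRAB proteins act were read from a list. Of 32 listed co-repressor, heterochromatin and DNA methylation genes 31 were in the table. Of these 1 was called (3.23%, against 10.2% of all genes tested), Dnmt3b, a de novo DNA methyltransferase. Dnmt3b lay at 79.53, 71.22, 71.69 and 72.04 CPM in CML 1, 2, 3 and 5 and at 15.57, 14.88, 7.672 and 13.79 CPM in CML-TKI 1 to 4. The log2 fold change was -2.46 ± 0.27 with an adjusted p of 0.00087 (edgeR), and CML 5 lay with the other CML libraries. Trim28, the scaffold that KRAB binds, lay at 662.4, 616.1, 587.3 and 833 CPM in CML and at 477.9, 512, 312.4 and 459.9 CPM in CML-TKI. The groups did not overlap, and the log2 fold change of -0.61 ± 0.22 had an adjusted p of 0.111 (edgeR). Setdb1 lay at 59.25 to 85.7 CPM in CML and 73.12 to 153.4 CPM in CML-TKI, and its adjusted p was 0.244 (edgeR). Dnmt3a, the other de novo methyltransferase, lay at 127.4 to 202.1 CPM and 74.38 to 122.3 CPM without overlap, with an adjusted p of 0.0756 (edgeR), and 0.0393 (edgeR) without CML 5. Of the 31 genes, 3 were lower and 0 higher without overlap, against 13.1% and 10.3% of all genes tested. The median log2 fold change of the 31 genes was 0.20, with 18 higher and 13 lower.

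The other Zfp genes with 1 to 3 digits gave a background of the same fold. Of 170 tested, 8 were called, 4 in each direction, which is 4.71%, against 10.2% of all genes tested. The median log2 fold change of the 170 was -0.27. They also lost level in CML 5, with a summed level of 6733.9 to 7050.4 CPM in CML 1 to 3 and 4452.3 CPM in CML 5. The members, at a median of -0.23, lay near these genes.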

How the data were processed

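Bulk RNA-seq of 8 LSC libraries was analysed, 4 CML and 4 CML-TKI. The authors prepared Nextera XT libraries and, per the submitters' notes and methods, aligned reads to mm10 with STAR 2.6.1d and quantified RefSeq transcripts in Partek Flow (Partek 8.0). The authors deposited estimated counts for each gene without normalization, of which 8.32% to 22.1% per library were not whole. They were rounded. Strand use was not given in the sources used here.

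edgeR 4.0.16 (R 4.3.3) was fitted to all genes with TMM, filterByExpr (minimum count 10, minimum total 15), robust dispersions, the quasi-likelihood test and Benjamini-Hochberg adjustment over 11937 genes. Standard errors were derived from the fold change and the F statistic (size over root F). Log2 CPM values used a prior count of 2. DESeq2 1.42.0 and limma 3.58.1 (voom with quality weights) were alternatives.

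GC content was read from a transcript model of GENCODE M21 (GRCm38), found for 155 members, which was the longest coding transcript where a gene had any. Fingers and KRAB A boxes were read by pattern from its coding sequence, and 3 members had no coding transcript. Named members were those called, the 8 most abundant, those without overlap and with mean log2 CPM 3 or more, and a list with known roles. The symbol rule uses no values, but the members and lists were chosen for description with earlier results of these data known.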

Additional observations from a re-analysis of the deposited data

Results flagged for a closer look

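Among 62 group tests of 31 measures, 15 values from 4 libraries stood apart from the rest of their group by Dixon's criterion, where about 3 would by chance. The sums share genes with the single members and with each other. Most of the values were from CML 5. It was low for Zfp638 (33 CPM, others 141.1 to 151.7), Zfp644 (43.2 CPM, others 140.9 to 148.2) and Zfp871 (195 CPM, others 365.9 to 383.9). It was high for Zfp746 (72.6 CPM, others 55.4 to 57.06), Zfp771 (43.7 CPM, others 20.1 to 22) and Zfp865 (79.9 CPM, others 46.71 to 50.39).

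CML 5 was also low for the summed level of the members (3010 CPM), of those with a KRAB A box (1170 CPM), of those without one (1800 CPM) and of the partner genes (4480 CPM). CML-TKI 1 was high for Zfp768 (16.9 CPM), Zfp827 (34.9 CPM) and the summed level of members with a KRAB A box (2130 CPM). CML-TKI 2 was low for Zfp646 (70.3 CPM) and CML-TKI 3 for Zfp704 (115 CPM).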

How the results depend on the processing

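Against 1 member called, DESeq2 called 10, limma-voom with quality weights 13, RLE size factors 2, total counts outside Rn45s as library size 3, and an adjusted p under 0.1 gave 8. Over all genes the share called was 18.1% with DESeq2, 21.5% with voom and 10.2% with RLE, the last as in the main fit. It was 16.4% at an adjusted p under 0.1, 9.84% with counts outside Rn45s and 12.2% without the GC trend. In the same order, the members' shares of 7.04%, 9.15%, 1.41%, 5.63%, 2.11% and 4.23% were below these. Removing the GC trend gave 6 and leaving out both CML 5 and CML-TKI 1 gave 22, both alternatives chosen after seeing the data. Leaving out 1 library gave 0 to 17. CML 1 to 3 summed to 1 library gave 0, where 0.971% of all genes were called and 2.07% of members and 13.7% of all genes had an unadjusted p under 0.05. The members' median log2 fold change was then 0.02, as was that of all genes, the one setting in which the members' median was above 0. For partner genes, against 1, DESeq2 gave 3, voom 4, counts outside Rn45s 2, leaving out CML 5 and CML-TKI 1 gave 3, adjusted p under 0.1 gave 2, and leaving out 1 library 1 to 2. For other Zfp genes, against 8, DESeq2 gave 20, voom 21, no filter 5, CML 1 to 3 summed 1, leaving out CML 5 and CML-TKI 1 gave 33, adjusted p under 0.1 gave 16, and leaving out 1 library 1 to 34. Of all genes, 6.81% were called with no filter and 20% without CML 5 and CML-TKI 1. Leaving out 1 library gave 4.13% to 20.6% of all genes. The cause of these differences was not tested.

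The replicate numbers were not taken to pair the libraries, since the deviations of same-numbered libraries did not all correlate above 0.1, at -0.022, 0.152 and 0.091. Those of different numbers lay at -0.183 to 0.083, and CML 2 and CML 3 but not CML 1 correlated best with their own number. With the replicate number as a block over 6 libraries, 0 members and 1 other Zfp gene were called, and without the block in the same 6 libraries 0 and 2, where 1.6% and 4.88% of all genes were called. At an unadjusted p under 0.05 the shares were 12.6% of members and 18.5% of all genes with the block, and 14% and 24% without it.

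The median of all genes moved to -0.11 with voom, to -0.12 with counts outside Rn45s and to -0.13 in the blocked fit, so members' medians there of -0.63, -0.35 and -0.58 are to be read against these shifts. With the GC trend removed the median of all genes was 0.097, with 990 called higher and 468 lower. Fold changes from that fit, among them the rises of Zfp703 and Zfp710, are to be read against that shift. Signs turned for Zfp644 (0.12 with CML 1 to 3 summed), Zfp809 (0.24 with CML 1 to 3 summed, -0.27 to 0.22 leaving out 1 library) and Zfp830 (-0.27 with voom). For Zfp871 the log2 fold change was -0.13 with voom, -0.092 with counts outside Rn45s, -0.007 with no filter, -0.17 with the block, -0.16 without the block, -0.089 without the GC trend, -0.14 without CML 5 and CML-TKI 1, and -0.17 to 0.11 leaving out 1 library. For Zfp961 it was -0.005 with counts outside Rn45s, -0.23 with the block, -0.19 without it, -0.004 without the GC trend, and -0.089 to 0.27 leaving out 1 library. Of the 156 members, 28 were at 0 in CML-TKI 3, the shallowest library, and 23 in CML-TKI 2, and the part of depth was not tested.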
